A study of Homo sapiens with 17 samples.

Results

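Long intergenic noncoding RNAs carry the symbol LINC followed by a number when they were found between coding genes and given no name of their own. The group described here was chosen by symbol and read number: every gene of the 1 h table whose symbol is LINC followed only by digits, and which had 100 or more reads summed over the 6 libraries of 1 h that received 4-thiouridine (s4U). Of 392 such symbols with a read, 115 met this rule, out of 19222 genes with a read in the series. Because the choice used the summed reads, expression above that threshold is not a result. Just inside it were LINC00526 with 102 reads, LINC00470 with 103 and LINC01337 with 104. Just outside were LINC00889 with 98, LINC01389 with 93 and LINC01426 with 91.

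The series used HEK-293T cells, a line derived from human embryonic kidney, and emetine, an alkaloid that stops the ribosome from moving along its transcript. At 1 h, 3 untreated libraries and 3 libraries of cells with 1.8 µM emetine had all received 500 µM s4U, and 1 untreated and 1 emetine library (1.8 µM) had received none. In the 2 h experiment, all cells were given 250 µM s4U and were untreated or treated with 1.8 or 240 µM emetine, 3 libraries each. In TL-seq, s4U built into new RNA is recoded so that reads of new transcripts carry T-to-C conversions, and the share of a gene's reads that come from new transcripts is its fraction new. No label or method says that the 3 libraries of a group came from separate cultures, so p-values measure only the spread between libraries, which may be technical. In such bulk libraries, fewer cells and less RNA per cell cannot be told apart.

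Long noncoding RNAs are capped, spliced and often polyadenylated like mRNAs, and many stay in the nucleus. Those that reach the cytoplasm can meet ribosomes, and a number of genes first named as noncoding were later found to encode small proteins. An elongation inhibitor acts on transcripts that ribosomes engage, so a group of transcripts named as untranslated is a comparison group for the mRNAs of the same cells.

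The name does not hold for every gene of the group. In the GENCODE 44 annotation of GRCh38 (hg38), 107 of the 115 had a match by symbol or synonym on the same chromosome. Of these, 93 were annotated as lncRNA, 12 as protein coding and 2 as transcribed pseudogenes, and the other 8 were unmatched. The unmatched symbols include LINC00888, LINC01000, LINC01061 and LINC01605, for which gene type and overlap with other genes are unknown here. Some of the 12, such as LINC00341, now listed as SYNE3 with 975 codons, are loci merged into a larger coding gene. Others encode small proteins: LINC01420 is NBDY, a microprotein of the decapping complex, with 68 codons, LINC00998 is SMIM30 with 59, LINC00493 is SMIM26 with 95, LINC00116 is MTLN, a mitochondrial microprotein, with 56, and LINC00094 is BRD3OS with 84. The first bases of these 5 annotated coding sequences are shown because they mark where a LINC symbol stands for a coding gene. Each is read from the GENCODE transcript in the direction of transcription, with the start codon in capitals.
LINC01420 (X, 56729354 to 56729383, plus strand): ATGggagaccaaccttgtgcctccgggaga
LINC00998 (chromosome 7, 113117549 to 113117578, minus strand): ATGacctcagtttcaacacagttgtcctta
LINC00493 (chromosome 20, 18567479 to 18567508, plus strand): ATGtatcgaaatgagttcacggcctggtac
LINC00094 (chromosome 9, 134026748 to 134026777, plus strand): ATGagtggccgtgtccccctggcagagaag
LINC00116 (chromosome 2, 110212496 to 110212525, minus strand): ATGgcggatgtgtcagagaggacactgcag

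The 93 genes annotated as lncRNA had a median transcript length of 1798 bases and a median longest open reading frame of 82 codons, against 2985 bases and 420 codons over 18140 matched genes. LINC01004 and LINC01578, whose levels are described below, have no annotated coding sequence. The first bases of their longest open reading frames, 52 and 49 codons long, are shown for comparison with those above, and nothing in these data says that they are translated.
LINC01004 (chromosome 7, 104950517 to 104953713, minus strand, across a splice junction): ATGactacaaaatggttcaagcgattctcc
LINC01578 (chromosome 15, 92897911 to 92897940, plus strand): ATGgacagtggatttgactttctaaagact

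LINC00657, also called NORAD, is a cytoplasmic RNA of 5401 bases in 1 exon (chromosome 20, 36045618 to 36051018, minus strand) that is known to bind Pumilio proteins through repeated elements. A search of its transcript strand for TGTANATA found 15 matches. The first 4 are shown as examples of these repeats, with the element in capitals.
element at (36050185 to 36050208): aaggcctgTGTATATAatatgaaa
element at (36049806 to 36049829): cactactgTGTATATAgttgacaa
element at (36049705 to 36049728): tcacatttTGTAAATAcctttttg
element at (36049504 to 36049527): cttatctgTGTATATAgtgtacat
Of the 107 matched LINC genes, 18 (16.8%) held at least 1 match, as did 28.8% of all matched genes, whose transcripts were longer. Repeated matches were not particular to LINC00657: LINC00632 held 10 in 21234 bases and LINC01023 held 4 in 2616 bases. A match is a string of letters and not a bound site.

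The 8 libraries of 1 h held 27416189 to 48852046 reads, of which 81.1% to 82.3% were given to a gene. Over the genes tested for fraction new, log2 deviations from the group mean had an SD of 0.258 in emetine replicate 3, against 0.0878 to 0.155 in the other 5 libraries. For the genes described below, values without it are therefore given where they move by over 1.5 times, change sign or change a call.

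LINC reads were few and concentrated. A LINC gene had a median of 540 reads over the 6 libraries, from 102 to 21264, and the 10 genes with the most reads held 53.4% of all LINC reads, LINC00657 alone 12.4%. In untreated cells the median level of the group was 2.92 CPM (reads scaled to library size), against 25.7 CPM over all 13776 genes tested. LINC00657 had 115, 115 and 113 CPM in the untreated libraries and 106, 106 and 137 CPM in the emetine libraries. Its groups overlapped, and its log2 fold change was 0.03 (SE 0.11), or -0.10 without emetine replicate 3. Next by reads was LINC00998, with a mean of 73.4 ± 2.84 CPM (SD, n = 3) in untreated and 63.4 ± 7.83 CPM in emetine-treated cells. Per kilobase of the matched transcript, LINC00493 had 103 CPM, LINC00998 72.6 CPM and LINC00116 39.1 CPM. These lay above LINC00657 with 21.2 CPM, LINC01578 with 21.0 CPM and LINC01420 with 19.5 CPM. Of the exon bases of LINC00493, 29.4% lie over exons of other genes on the same strand. LINC00674 had 304 CPM per kilobase, a value that rests on an annotated transcript of only 160 bases. Of its exon bases, 97.5% lie over exons of other genes on the same strand. The origin of its reads, here and below, is therefore uncertain.

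To ask whether emetine altered the levels of LINC transcripts at 1 h, reads were compared between the 3 emetine and the 3 untreated libraries. 1 of 115 LINC genes, LINC01004, rose and 0 fell at an adjusted p under 0.05 (edgeR quasi-likelihood test). Over all genes tested, 2.64% rose and 0.0436% fell. At an unadjusted p under 0.05, 11 LINC genes were higher and 3 lower, against 14.9% and 6.95% of all genes. LINC genes had a lower median level than all genes, and fewer reads make a change harder to call. These shares are therefore not at like depth. The median log2 fold change of the group was 0.00, beside 0.03 over all genes tested. These changes are relative to the other genes, because TMM scaling sets most genes to no change. With spike-in reads for scaling, the median moved to 0.64 for LINC genes and 0.71 for all genes, and no LINC gene was called. For comparison, 90 of 434 ZNF genes, 1 of 284 antisense RNAs and 0 of 21 snoRNA host genes rose in the same fit, with median log2 fold changes of 0.50, -0.02 and 0.10. Without emetine replicate 3, 214 of 432, 5 of 272 and 8 of 21 rose, with medians of 0.40, 0.03 and 0.22.

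LINC01004 (chromosome 7, 104950315 to 105013068, minus strand, 3 exons) had 81, 115 and 89 reads in the untreated libraries and 222, 231 and 171 in the emetine libraries. Scaled, these were 2.90, 3.29 and 4.20 CPM without and 6.34, 5.77 and 6.42 CPM with emetine. All emetine values lay above all untreated values. The log2 fold change was 0.84 (SE 0.18, adjusted p = 0.0468 by edgeR). The call was close to the threshold. It was lost on leaving out any 1 of the other 5 libraries (adjusted p = 0.0691 to 0.222) and was kept without emetine replicate 3 (log2 fold change 0.82, adjusted p = 0.00851). With DESeq2 size factors in the same edgeR test the adjusted p was 0.0574.

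Another 4 genes had the smallest p-values among LINC genes with a higher level, and none passed the test over all 6 libraries. LINC01578, also called CHASERR, lies next to the chromatin remodeler gene CHD2 and is known to restrain it. It had 37.1, 31.9 and 38.2 CPM in untreated cells and 50.1, 54.6 and 40.1 CPM with emetine, groups that did not overlap (log2 fold change 0.44, SE 0.13, adjusted p = 0.128 by edgeR). LINC01000 had 33.1, 35.2 and 37.6 CPM without and 42.5, 42.5 and 47.7 CPM with emetine (log2 fold change 0.33, SE 0.10, adjusted p = 0.124 by edgeR). LINC01061 had 8.86, 11.0 and 8.97 CPM without and 12.8, 11.9 and 14.9 CPM with emetine, and LINC00888 had 9.32, 8.82 and 8.21 CPM without and 11.9, 10.8 and 11.4 CPM with emetine. In each of these 4 genes the lowest emetine library was above the highest untreated one. LINC01000, LINC01061 and LINC00888 have no annotation match, so whether they are noncoding is unknown here. In all, 14 of 115 LINC genes had all emetine libraries above all untreated ones and 6 had all below, against 19.5% and 15.2% of all genes tested.

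At the lower end, LINC00094 (BRD3OS) had 42.6, 44.1 and 47.8 CPM in untreated cells and 35.3, 39.1 and 35.4 CPM with emetine (log2 fold change -0.29, SE 0.09, adjusted p = 0.149 by edgeR). LINC01521 had 17.9, 19.2 and 20.1 CPM without and 14.5, 16.1 and 13.5 CPM with emetine (log2 fold change -0.37, SE 0.12, adjusted p = 0.138 by edgeR). LINC01311, LINC00959 and LINC01481 had log2 fold changes of -0.54, -0.51 and -0.41, with adjusted p-values of 0.205 to 0.263 by edgeR. Without emetine replicate 3 these became -0.33, -0.39 and -0.26. The groups of LINC01481 overlapped and those of the other 4 did not. Of the 12 genes annotated as protein coding, 0 were called, and their median log2 fold change was -0.21, beside 0.01 for the 93 annotated as lncRNA. Without emetine replicate 3 these medians were -0.07 and 0.02.

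Of a fixed list of 18 LINC genes with a known function or product, 15 were in the group, and LINC00961, LINC00511 and LINC00473 had under 100 reads. None of the 15 passed the test. LINC00472 had 3.87, 2.84 and 2.83 CPM without and 3.97, 3.90 and 6.79 CPM with emetine, which do not overlap (log2 fold change 0.61, SE 0.26, adjusted p = 0.222 by edgeR). Emetine replicate 3 was the highest of its libraries, and without it the log2 fold change was 0.31. In the libraries without s4U, its ratio of emetine to untreated was 0.723 (95% exact interval 0.535 to 0.976), the other direction. LINC00662, LINC00909, LINC00467 and LINC00461 had log2 fold changes of 0.25, 0.10, -0.05 and 0.02, and the libraries of each overlapped. Without emetine replicate 3 these were 0.37, 0.20, -0.07 and -0.02. LINC00641, LINC00665, LINC00116, LINC00493 and LINC01420, whose libraries overlapped as well, had 0.06, 0.03, -0.12, -0.18 and -0.22 with that library and -0.14, 0.06, 0.02, 0.01 and -0.07 without it. LINC00998, whose groups did not overlap, had -0.21 with it and -0.11 without.

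**Figure D1:**
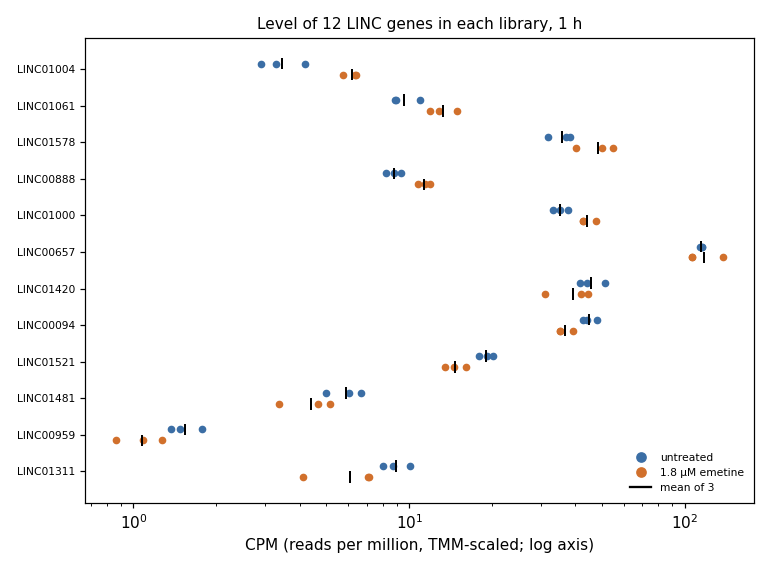
Level of 12 LINC genes in each library of 1 h with s4U, in CPM on a log axis. Points are libraries (3 untreated, 3 with 1.8 µM emetine) and bars are group means; LINC01004 shows untreated values of 2.90 to 4.20 CPM and emetine values of 5.77 to 6.42 CPM.

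Without emetine replicate 3, 110 LINC genes were tested, of which 3 rose (LINC01578, LINC01004 and LINC01000) and 2 fell (LINC00094 and LINC01521). Over all 13579 genes of that fit, 10.1% rose and 3.87% fell, larger shares than among LINC genes, a difference that was not tested. The shares are not at like depth: the median untreated level was 2.92 CPM for LINC genes and 25.7 CPM for all genes. Fewer reads make a change harder to call. LINC01578 then had a log2 fold change of 0.56 (adjusted p = 0.000515 by edgeR) and LINC01000 one of 0.27 (adjusted p = 0.0230). LINC00094 had -0.26 (adjusted p = 0.0335 by edgeR) and LINC01521 -0.31 (adjusted p = 0.0474). The 2 remaining emetine libraries are then the whole of that group.

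**Figure D2:**
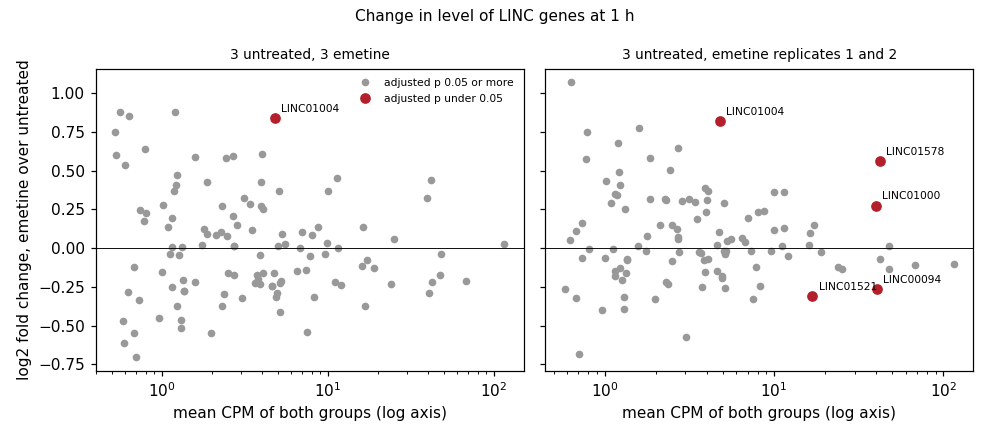
Log2 fold change in level (emetine over untreated) of LINC genes against their mean CPM on a log axis, with all 6 libraries (left) and without emetine replicate 3 (right). Red points have an adjusted p under 0.05 by edgeR: 1 gene of 115 on the left and 5 of 110 on the right.

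The libraries without s4U give a second view of the same treatment in cells the test did not use, with 1 library of each kind and therefore no test. LINC01578 had 1062 reads in the untreated and 2188 in the emetine library, a ratio of 1.57 after scaling to gene reads (95% exact interval 1.46 to 1.69, counting error only). LINC01004 had 139 and 242 reads, a ratio of 1.33 (1.07 to 1.65), and LINC01000 had 817 and 1297 reads, a ratio of 1.21 (1.11 to 1.32). Both LINC01521, with a ratio of 0.783 (0.674 to 0.910), and LINC01311, with 0.630 (0.524 to 0.757), were lower. LINC00094 had 0.917 (0.841 to 0.9999) and LINC01481 had 0.893 (0.698 to 1.14). LINC00959 went the other way on 28 and 49 reads, with 1.34 (0.823 to 2.21), an interval that holds no difference. LINC00657 had 0.867 (0.823 to 0.912). LINC00888 had a ratio of 0.978 (0.825 to 1.16), within counting error of no difference. Of 76 LINC genes with 100 or more reads in these 2 libraries, 8 were at least 1.5 times higher with emetine and 2 at least 1.5 times lower. Over all 12392 genes, these shares were 5.12% and 1.92%. LINC genes had a lower median level than all genes, and at few reads counting error alone passes 1.5 times more easily. Of the 5 called in either fit above, LINC01578 was the 1 past that fold.

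**Figure D3:**
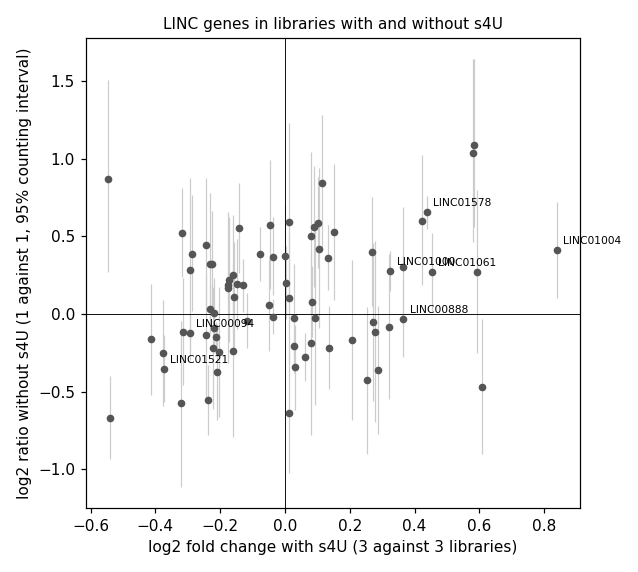
Log2 ratio of emetine to untreated in the 2 libraries without s4U (vertical, with 95% counting intervals) against the log2 fold change in the 6 libraries with s4U (horizontal), for 76 LINC genes. LINC01004, LINC01578 and LINC01000 lie above 0 on both axes and LINC01521 below 0 on both.

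To measure turnover, the fraction new was estimated in each library. With s4U, between 1.82% and 2.22% of the T positions in LINC reads carried a conversion, against 0.042% to 0.044% without it. Over all genes the range with s4U was 0.80% to 1.06%. In each of the 6 libraries 35 LINC genes had 100 or more reads, and the half-lives below describe these 35, the more abundant ones, and not the group.

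In untreated cells their median half-life was 3.63 h (4.28, 3.18 and 3.36 h in the single libraries), beside 5.35 h over all 10763 genes with as many reads (7.13, 5.26 and 4.36 h). Half-lives assume that levels were steady and that s4U entered RNA at once. The interquartile range was 1.69 to 5.54 h for the 35 genes and 2.84 to 9.93 h for all genes. A half-life under 2 h was found for 10 of the 35 (28.6%) and for 15.3% of all genes, and one over 10 h for 2 of the 35 (5.71%) and for 24.8% of all genes. Median half-lives were 2.31 h for 94 antisense RNAs, 1.37 h for 285 ZNF genes and 1.09 h for 20 snoRNA host genes. At a minimum of 50 reads per library, 66 LINC genes had a median of 2.96 h. With at least 500 reads, 8 had 5.27 h, so the value depends on which LINC genes are deep enough to be read. Above a minimum, LINC genes and all genes were not matched for depth.

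LINC01311 was the shortest-lived, with 92.5%, 87.7% and 90.9% new reads in untreated cells and a half-life of 17.8 min. LINC01003 (47.4%, 52.7% and 50.6% new), LINC01521 (41.3%, 46.3% and 52.5%), LINC00938 (38.6%, 49.6% and 49.9%) and LINC01089 (33.2%, 42.1% and 48.0%) followed with half-lives of 0.99, 1.10, 1.12 and 1.31 h. The values of these last 4 overlapped between libraries. LINC01089 had the lowest value of the 4 in each library, and the order of the others changed between libraries. Of the exon bases of LINC01089, 59.1% lie over exons of the opposite strand and 61.0% over exons of other genes on its own strand. Since the counting strand is not stated, its reads and those of the partner genes cannot be told apart. LINC01004 had fewer than 100 reads in 2 of the untreated libraries and is not among the 35. Its fraction new was 87.5%, 95.4% and 88.7% in untreated and 97.8%, 93.3% and 96.2% in emetine-treated cells.

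At the other end, LINC01420 (NBDY) had 0.927%, 1.57% and 2.12% new reads and a half-life of 44.7 h, with 32.3 to 74.4 h in single libraries. Such a value rests on few converted reads and is far beyond the labeling time. LINC00665 (10.1 h), LINC00648 (8.997 h), LINC00674 (8.72 h) and LINC01605 (8.58 h) came next, and their single-library values overlapped. Among the small-protein genes, LINC00998 had a half-life of 7.61 h, LINC00094 of 5.56 h, LINC00493 of 4.98 h and LINC00116 of 2.05 h. These 5 coding genes had a median of 5.56 h, beside 2.64 h for 24 genes annotated as lncRNA, sets that were not matched for depth. LINC00657 had 23.4%, 28.1% and 32.0% new reads and a half-life of 2.13 h, and LINC01578 had 33.2%, 40.8% and 41.5% and a half-life of 1.42 h.

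**Figure D4:**
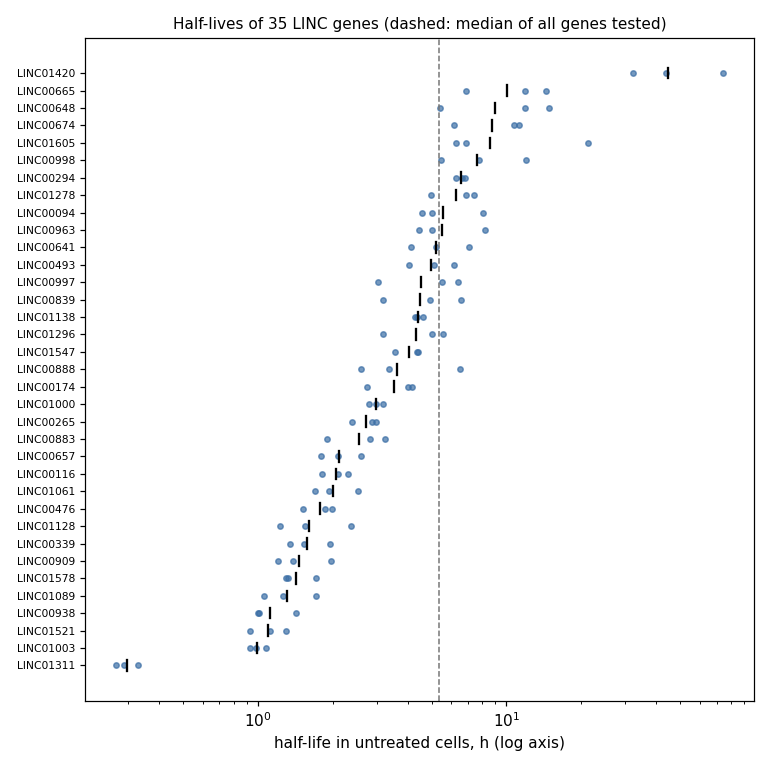
Half-lives in untreated cells of the 35 LINC genes with 100 reads or more in every library, in hours on a log axis. Points are the 3 untreated libraries and bars the value from the mean fraction new; the genes run from LINC01311 at 0.30 h to LINC01420 at 44.7 h, and the dashed line is the median of all genes tested, 5.35 h.

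Whether emetine changed the balance of new and old LINC reads was tested on the logit of the fraction new with limma. 1 of 35 LINC genes, LINC01296, had a lower fraction new and 0 a higher one at an adjusted p under 0.05, against 4.83% and 0.214% of all genes. At an unadjusted p under 0.05, 6 of the 35 were lower and 1 higher, against 15.4% and 1.15% of all genes, so the number lower was near the share among all genes. In simulated data with 200 changed genes, this test found 39% of those changed by 1 in logit and 0% of those changed by 0.5. Changes of that size can therefore be missed. The simulated rates need not hold for these data, where 110 of 285 ZNF genes were called lower, with a median difference of -0.56 over the 285. The median difference in logit was -0.16 for the 35 genes and -0.16 for all 10763, and 28 of the 35 were below 0, as were 75.6% of all genes.

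LINC01296 had 11.8%, 19.5% and 12.96% new reads in untreated cells and 5.40%, 10.2% and 5.12% with emetine. Every emetine value lay below every untreated one. The difference in logit was -0.87 (SE 0.22, adjusted p = 0.00889 by limma), and without emetine replicate 3 it was -0.74 (adjusted p = 0.125). The call was also lost without untreated replicate 2 or 3 or emetine replicate 1 (adjusted p = 0.134 to 0.214 by limma) and when reads weighted the fit (adjusted p = 0.338). This symbol matches DUXAP9, a pseudogene of a family with close copies, and 192 reads of the table were given jointly to it and DUXAP10, so its reads are uncertain.

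No other LINC gene passed this test. LINC00963 had 8.08%, 14.4% and 12.96% new reads without and 16.7%, 20.2% and 19.0% with emetine (difference in logit 0.56, adjusted p = 0.116 by limma), and 55.6% of its exon bases lie over exons of the opposite strand. LINC01128 had 25.5%, 36.2% and 43.3% without and 21.9%, 23.8% and 24.4% with emetine (-0.55, adjusted p = 0.142 by limma). LINC00476 had 29.5%, 31.2% and 36.6% without and 21.8%, 22.9% and 21.3% with emetine (-0.53, adjusted p = 0.148). In all 3 the groups did not overlap. LINC01578 stayed near its untreated values, with 39.0%, 38.6% and 40.3% new reads under emetine (difference in logit 0.04, SE 0.22). LINC00657, with 26.8%, 24.5% and 22.8% under emetine, differed by -0.16 (SE 0.21), and without emetine replicate 3 these differences were 0.02 and -0.11.

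**Figure D5:**
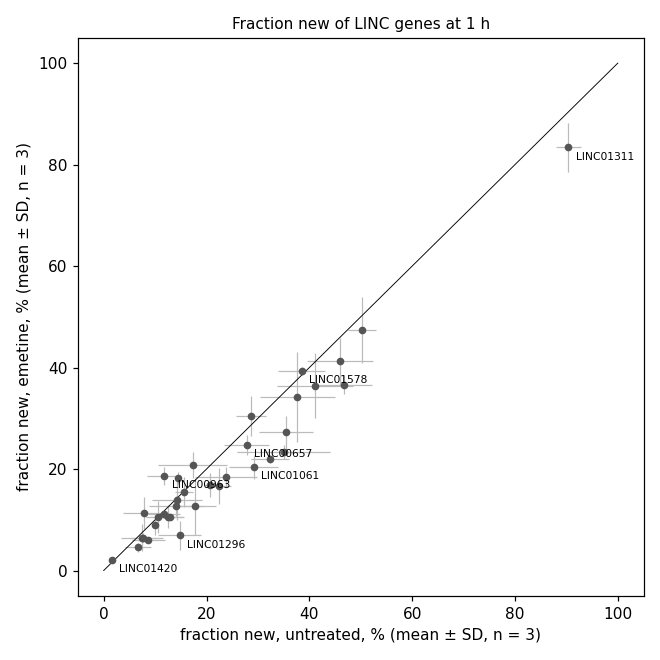
Fraction new with emetine against that in untreated cells for 35 LINC genes, in percent (mean ± SD, n = 3 libraries each), with the line of equality. LINC01296 lies below the line at 14.8% and 6.91%, and LINC01420 near the origin at 1.54% and 2.16%.

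Reads were then split into labeled (new) and unlabeled (made before the hour) CPM, with 0.5 CPM added before log2 values were compared with limma. Of the 35 LINC genes, LINC01061, which has no annotation match, rose in unlabeled reads and 0 fell, against 7.3% and 0.0929% of all genes. Its unlabeled level was 6.73, 7.68 and 5.96 CPM in untreated and 9.90, 9.73 and 11.9 CPM in emetine-treated cells, which do not overlap (log2 difference 0.60, SE 0.15, adjusted p = 0.0469 by limma). Its labeled level was 2.12, 3.30 and 3.003 CPM without and 2.95, 2.18 and 2.95 CPM with emetine, which overlap. Like that of LINC01004, the call lies at the threshold, and it was lost on leaving out any 1 of the 5 libraries other than emetine replicate 3. LINC01000 had 26.7, 27.9 and 29.4 unlabeled CPM without and 34.5, 35.1 and 40.8 with emetine (log2 difference 0.39, adjusted p = 0.0719 by limma), and it passed without emetine replicate 3 (0.31, adjusted p = 0.0295), as did LINC01061 and LINC01578. In labeled reads, 0 LINC genes rose and 0 fell, against 0.26% and 0.632% of all genes, and at an unadjusted p under 0.05, 1 was higher and 5 lower, against 1.64% and 10.6% of all genes.

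Of the 115 LINC genes, 24 are listed by the same symbol in the deposited 2 h tables. These give 1 value per gene, the authors' mean of spike-in-normalized counts over all 2 h libraries, with no spread. That mean was 3845 for LINC00657, 1609 for LINC00674, 1053 for LINC00998 and 1009 for LINC00641, the 4 highest, and 140 for LINC01184, the lowest. LINC00630 had 686, LINC01578 678, LINC01000 615 and LINC01004 525. LINC00493 and LINC00116 had no row in these tables. The 2 h libraries were made with a total RNA kit and the 1 h libraries from polyadenylated RNA, so the 2 scales were not compared.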

How the data were processed

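TL-seq reads of HEK-293T cells (8 libraries at 1 h) were trimmed with cutadapt, mapped to hg38 with hisat-3n and tabulated with bam2bakR by the authors. The deposited 1 h table holds read counts per gene, T positions and T-to-C conversions, without normalization. The signal values of the 2 h tables are the authors' mean of spike-in-normalized counts (htseq-count, DESeq2) over 9 libraries. The deposited log2 fold changes and p-values of the 2 h tables are the authors' own comparisons and were not used, and neither was the table of spike-in factors. The counting strand is not given in the sources used here.

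The LINC genes and the comparison lists were chosen with earlier results of these data known. Named genes are those called, those with the 5 smallest p-values per direction, the 10 most abundant, the 5 shortest- and longest-lived, the 3 on each side of the read threshold, and a fixed list. LINC00341, LINC01184, LINC00630, LINC00632 and LINC01023 were named after their values were seen.

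Counts were compared with edgeR 4.0.16 (R 4.3.3, TMM, quasi-likelihood) over 13776 genes that had more than 100 reads. The fit was also run with robust dispersion and with library sizes from all gene reads. The form reported follows an earlier treatment of these data and was settled on after its counts over all genes had been seen. The fraction new is the maximum likelihood weight of a 2-component binomial mixture, with the old rate from the library without s4U. Its logit, bounded at 0.001 and 0.999, and the log2(CPM + 0.5) of new and of old reads, went into limma 3.58.1 (trend, robust). All p-values are two-sided and adjusted by Benjamini-Hochberg over all genes. DESeq2 1.42.0 and mgcv 1.9.3 served for alternatives, Python 3.11.15 for estimates. On simulated counts for these 6 libraries, 200 genes drawn from all genes tested were changed, without regard to the depth of LINC genes. Of these, 16% were recovered at a change of 0.5 log2 units, 83% at 1 and 95% at 1.5. Of the calls, 6.86% to 8.57% were false. For the fraction new test, 0% were recovered at a logit change of 0.5 and 39% at 1. Intervals are 95% exact and cover counting error only, since no molecular identifiers are described.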

Additional observations from a re-analysis of the deposited data

How the results depend on the processing

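Calls among LINC genes were few and most moved by 1 or more with the processing, and the cause was not tested. For level, 1 gene rose in the reported fit, 0 with DESeq2 size factors, with spike-in scaling or with the replicate block, and 2 (LINC01004 and LINC01578) with the transcript length and GC trend removed, where 107 genes could be tested. The number lowered was 0, and 1 with the DESeq2 Wald test (LINC01521) and with that trend removed (LINC00094). The median log2 fold change of 0.00 became 0.64 under spike-in scaling. Leaving out 1 library gave 0 to 3 raised and 0 to 2 lowered. Over all genes, 363 rose and 6 fell, 820 and 156 with the DESeq2 test, 796 and 585 with the length and GC trend removed, 60 and 0 with spike-in scaling and 75 and 3 with the replicate block. The 3 settings added after seeing the data, robust dispersion (334 and 5 over all genes), library sizes from all gene reads (365 and 6) and both together (334 and 5), each called LINC01004 alone, with an adjusted p of 0.0462 to 0.0468 by edgeR.

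For fraction new, 1 gene was lower in the reported fit, 0 with at least 50 reads or when weighted by reads, and 2 (LINC00476 and LINC01128) after centering libraries on their medians, where 1 (LINC00963) was higher. With at least 500 reads, 8 LINC genes were left and 0 were called, and LINC01296 was not among those tested. Over all genes, 2.53%, 5.16%, 6.95% and 3.22% were lower under these settings, in the same order. Leaving out 1 library gave 0 to 7 lower. The 7 of 35 came without untreated replicate 1, where 23.5% of all genes were lower, and the other libraries gave 0.873% to 1.9% of all genes. In unlabeled reads, 1 gene rose, 0 with the replicate block, and 0 to 3 on leaving out 1 library, with 3 without emetine replicate 3, where 13.7% of all genes rose. In labeled reads, 0 fell, and 0 to 3 on leaving out 1 library, with 3 of 35 without untreated replicate 1, where 16.1% of all genes fell. The median half-life of 3.63 h was 2.96 h with at least 50 reads, 5.27 h with at least 500 and 3.27 to 3.96 h on leaving out an untreated library. Of the values of single named genes under the alternatives other than spike-in scaling, 1162 kept direction and side of the threshold, 20 lost a call, 21 gained one and 85 changed sign without a call in either fit. Under spike-in scaling, which moves the median of all genes to 0.71, 18 were kept, 1 lost a call and 18 changed sign. Deviations of same-numbered libraries had correlations of 0.07, -0.01 and -0.17 for level and 0.06, 0.00 and 0.02 for fraction new. Libraries of different numbers had correlations of -0.25 to 0.16 for level. No pairing by number was seen, but with 3 libraries per group this check cannot exclude it. Depth limits the rest: 80 of 115 genes had too few reads for a half-life.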
